A study of Caenorhabditis elegans with 6 samples.

Results

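The intracellular lipid-binding protein genes of Caenorhabditis elegans, lbp-1 to lbp-9, were examined in nematodes grown with a mixture of 2 organophosphate pesticides. The genes were taken by name, by matching the sequence name of each spot in the scanner files to its gene symbol, and all 9 were found, with 1 probe each, among 18999 features (17889 named genes and otherwise single probes). RNA of the strain N2 was hybridised on 6 arrays of 2 colours, each carrying RNA of nematodes treated with chlorpyrifos and diazinon (CPF+DZN) and RNA of control nematodes. The mixture was labelled with Cy5 on 3 arrays and with Cy3 on the other 3. Both groups were grown at 24 °C on NGM agar with Escherichia coli OP50. The treated plates held CPF at 0.5 mg/L and DZN at 1 mg/L, dissolved in acetone, and the control plates held acetone at a like concentration. The worms of 4 dishes made 1 sample. For the harvest the labels state 72 h and stage L3/L4, whereas a shorter time and late L3 are stated in the methods, which leaves the age uncertain. The scanner headers hold 6 extract numbers for the control and 5 for the mixture (mixture in Cy3 replicate 1 has the mixture number of mixture in Cy5 replicate 2), so the p-values cover the spread between arrays, which may be technical in part.

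Lipid-binding proteins of this family are small barrel-shaped proteins that hold a fatty acid or a similar hydrophobic molecule in an inner cavity and carry it through water. In C. elegans, LBP-1, LBP-2 and LBP-3 carry a signal peptide and are of a secreted type, whereas the other members stay inside the cell. LBP-8 is known as a lipid chaperone of the lysosome in the intestine: it takes a lipid signal, released by the lysosomal lipase LIPL-4, to the nucleus, where the nuclear receptors NHR-49 and NHR-80 respond. LBP-5 has been linked to fat storage through NHR-49.

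One member rose. The level of lbp-8 was 2.84-fold higher in CPF+DZN than in control (95% interval 2.37 to 3.39), and higher on 6 of 6 arrays. None of the other 8 members passed the test in either direction, and their 95% intervals ran from 0.641-fold for lbp-9 to 1.51-fold for lbp-1, so that a halving or a doubling lay outside the interval of each. A member was called when its adjusted p was under 0.05 in a limma fit across all features, with Benjamini-Hochberg adjustment over all of them. By this rule 6.74% of all features were called higher and 7.13% lower (13.9% in either direction), against 1 and 0 of the 9 lbp genes. The count is therefore near the background. As a description, 0.858% of all features were called and at least 2-fold higher, and 59 features had a higher ratio than lbp-8. The control signal of lbp-8 was well above background on 2 of 6 arrays, and its fold was 1.96 with no background correction and 7.44 with plain background subtraction, so its size and rank are not settled.

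**Figure D1:**
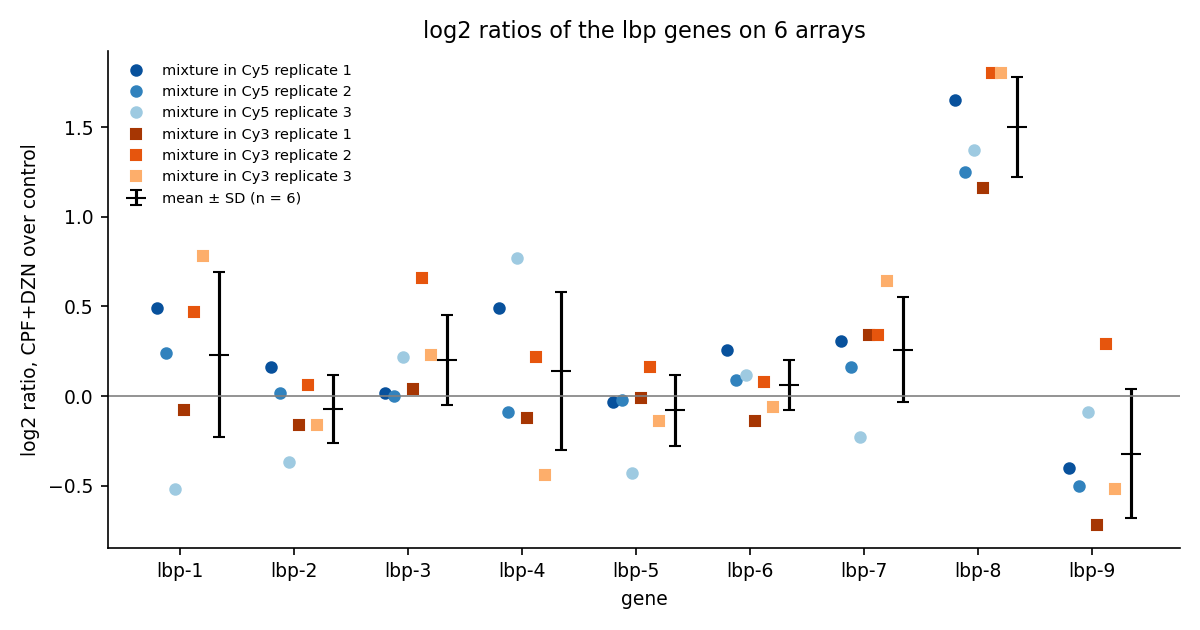
log2 ratio of CPF+DZN over control (vertical axis) for each lbp gene (horizontal axis), with a point for each of the 6 arrays and the mean ± SD beside them. The lbp-8 points lie between 1.16 and 1.80, above every point of the other genes, which lie between -0.72 and 0.78.

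The 6 arrays did not resemble each other equally. The correlation of their ratios across all features ranged from 0.237 to 0.714 between pairs of arrays, and mixture in Cy5 replicate 3 was the least like the others (mean r of 0.276). The spots well above background, with a foreground median more than 2 background SDs over the local background median, made up 44.1 to 54.9% of the spots for the mixture and 47.9 to 58.1% for the control. Over all features 6.74% were called higher and 7.13% lower. Among the marker lists, 4 of 10 intestinal genes were called higher and none lower (median log2 ratio 0.16). The other somatic lists had medians of 0.13 (hypodermis, 2 of 10 called higher), 0.21 (muscle, 1 of 10), 0.30 (pharynx, 0 of 6) and 0.29 (neurons, 0 of 9). Of the 6 yolk genes 6 were called lower (median -1.64), as were 12 of 14 oocyte genes (median -1.42) and 9 of 14 sperm genes (median -0.60). In whole nematodes, fewer cells of a type and less RNA per cell cannot be told apart. Whether the groups differed in stage was not tested.

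The lbp-8 probe was dim, so its readings are given first as the scanner recorded them. In the mixture channel the foreground median was 401, 309 and 296 on the 3 arrays with the mixture in Cy5 and 267, 343 and 432 on the 3 with the mixture in Cy3, over local backgrounds of 149 to 171. In the control channel of the same arrays it was 208, 186 and 166, and 175, 186 and 224, over backgrounds of 146 to 160. Every mixture reading was higher than every control reading. The probe was well above background on 6 of 6 arrays in the mixture channel but on 2 of 6 in the control channel, replicate 3 of mixture in Cy3 and replicate 1 of mixture in Cy5. After the local background was taken away, 118 to 283 units (median 167.5) were left in the mixture and 16 to 66 (median 28.5) in the control. The spot was not saturated on any array, and it carried the flag value 4 on all 6, a code that no source used here explains.

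**Figure D2:**
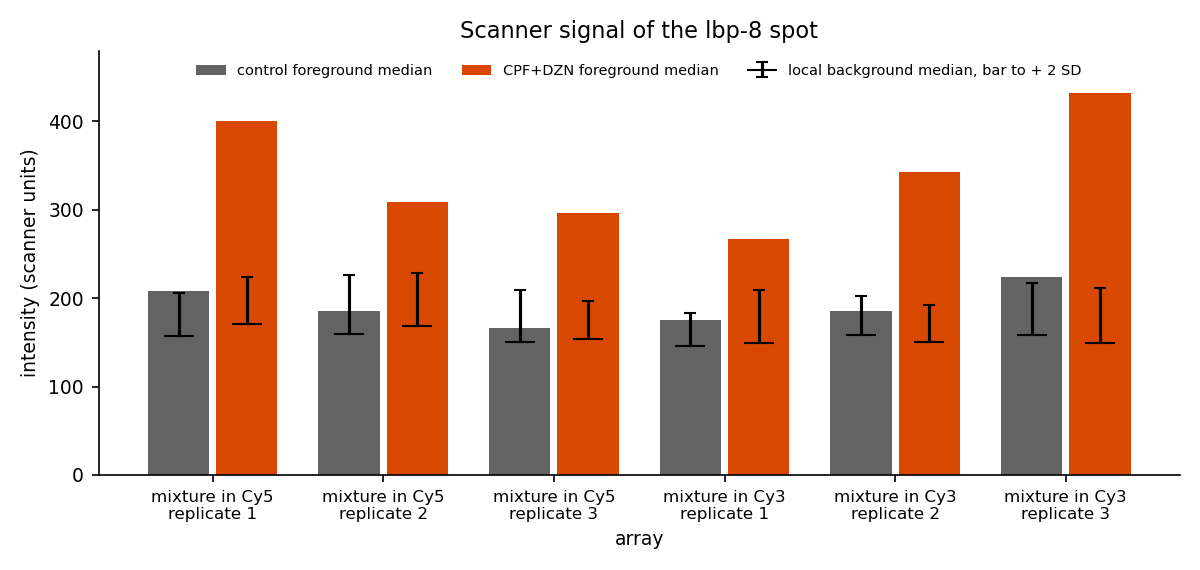
Foreground median of the lbp-8 spot in scanner units (vertical axis) in the control and CPF+DZN channels of each array (horizontal axis), with the local background median as a line and a bar reaching 2 SD above it. The mixture bars (267 to 432) clear the background bar on all 6 arrays, and the control bars (166 to 224) do so on 2.

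The normalized log2 signal of lbp-8 ranged from 7.60 to 8.55 in the mixture (median 8.05) and from 6.23 to 6.84 in the control (median 6.55). The groups did not overlap, which was so for lbp-8 alone among the 9 genes. Over all features 0.658% had mixture levels wholly above the control levels. On single arrays the log2 ratio was 1.65, 1.25 and 1.37 with the mixture in Cy5 and 1.16, 1.80 and 1.80 with it in Cy3. Both orientations gave ratios of like size, and the dye term of lbp-8 did not pass the test (adjusted p = 0.903, limma). It passed for none of the 9 lbp genes and for 0.0211% of all features. The mean log2 ratio was 1.50 ± 0.28 (SD, n = 6, adjusted p = 0.000545, limma). It kept its call in 23 of 23 alternative analyses that could include it.

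How large the lbp-8 ratio is depends on the background. With the local background subtracted plainly the log2 ratio was 2.90 (7.44-fold), with no background correction it was 0.97 (1.96-fold), and in the authors' deposited table, which has a value for 5 of the 6 arrays, it was 0.87. The adjusted p was 0.0032, 0.0068 and 0.00368 in these fits (limma). The direction was thus common to these fits, and the fold was not. The ratio was as large in 2 subsets of arrays, 1.48 over 4 arrays and 1.73 over 3 scanned on a shared day. The 4 have the higher slide numbers in the scanner headers. They are called the later slide series here, a name that no label gives. Both subsets hold replicates 2 and 3 of mixture in Cy3, so they are not separate repeats. The intestinal markers, all 10 of which were well above background in both groups, had a summed normalized signal of 68215 to 114009 in the mixture and 49540 to 80844 in the control. On mixture in Cy5 replicate 3, the array least like the others, the log2 ratio of lbp-8 was 1.37. There the intestine and oocyte lists had median log2 ratios of -0.03 and -0.24. On the other arrays these medians were 0.25 to 0.44 and -2.44 to -0.69, with lbp-8 at 1.16 to 1.80. Whether the make-up of the tissues bears on the lbp-8 ratio was not tested.

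The neighbour of lbp-8 in the family is lbp-7, a gene of the intracellular type that lies on the same clone with 3 protein-coding genes between them in the WBcel235 gene order. The normalized log2 signal of lbp-7 was 11.15 to 12.21 in the mixture (median 11.51) and 10.86 to 11.58 in the control (median 11.35), so the groups overlapped. Its log2 ratio was 0.31, 0.16 and -0.23 with the mixture in Cy5 and 0.34, 0.34 and 0.64 with it in Cy3, higher on 5 of 6 arrays. The mean of 0.26 ± 0.29 (SD, n = 6) did not pass the test (adjusted p = 0.117, limma). Without mixture in Cy5 replicate 3, the 1 array where it was lower, the value was 0.34 and passed (adjusted p = 0.0270). Leaving out that array raised the features called from 2636 to 4609. Set against each other within arrays, lbp-8 exceeded lbp-7 on 6 of 6, by 1.25 ± 0.28 on the log2 scale (SD) and by 0.82 to 1.60 on single arrays. This size rests on the faint control signal of lbp-8 as well: lbp-7 minus lbp-8 was -2.61 with plain background subtraction and -0.77 in the deposited table. The exact sign permutation test gave p = 0.0312 (two-sided), the smallest that 6 arrays allow, and 0.156 after adjustment over the 5 pairs of neighbouring lbp genes compared, so that 1 pair alone could not pass after adjustment.

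The secreted-type genes lbp-1, lbp-2 and lbp-3 lie side by side, with lbp-1 in the middle, and none of them passed the test. Their probes were well above background in both channels of all 6 arrays. The log2 ratio of lbp-1 was 0.49, 0.24 and -0.52 with the mixture in Cy5 and -0.08, 0.47 and 0.78 with it in Cy3, a mean of 0.23 ± 0.46 (SD, n = 6, adjusted p = 0.408, limma). It had the widest spread of the 9 genes. Within the shared scan day (replicates 2 and 3 of mixture in Cy3 with replicate 1 of mixture in Cy5) its value was 0.55 and passed (adjusted p = 0.0261, limma), while within the later slide series it was -0.07.

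The lbp-2 ratios stayed closer together, at 0.16, 0.02 and -0.37 and at -0.16, 0.06 and -0.16 in the same order of arrays (mean -0.07 ± 0.19, adjusted p = 0.671). The lbp-3 ratios were 0.02, 0.00 and 0.22, and 0.04, 0.66 and 0.23 (mean 0.20 ± 0.25, adjusted p = 0.234). Thus lbp-3 was at or above 0 on every array, but on 3 of them by no more than 0.04. A sign shared by all 6 arrays was found for 17.4% of all features.

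The 3 genes were also compared with each other within arrays. The log2 ratio of lbp-1 exceeded that of lbp-2 by 0.30 ± 0.37 (SD, n = 6, exact sign permutation test, adjusted p = 0.208) and that of lbp-3 by 0.03 ± 0.48 (adjusted p = 0.906). The ratio of lbp-2 was lower than that of lbp-3 by 0.27 on average, with an SD of 0.31 (exact sign permutation test, adjusted p = 0.208). None of these differences was larger than the spread between arrays.

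**Figure D3:**
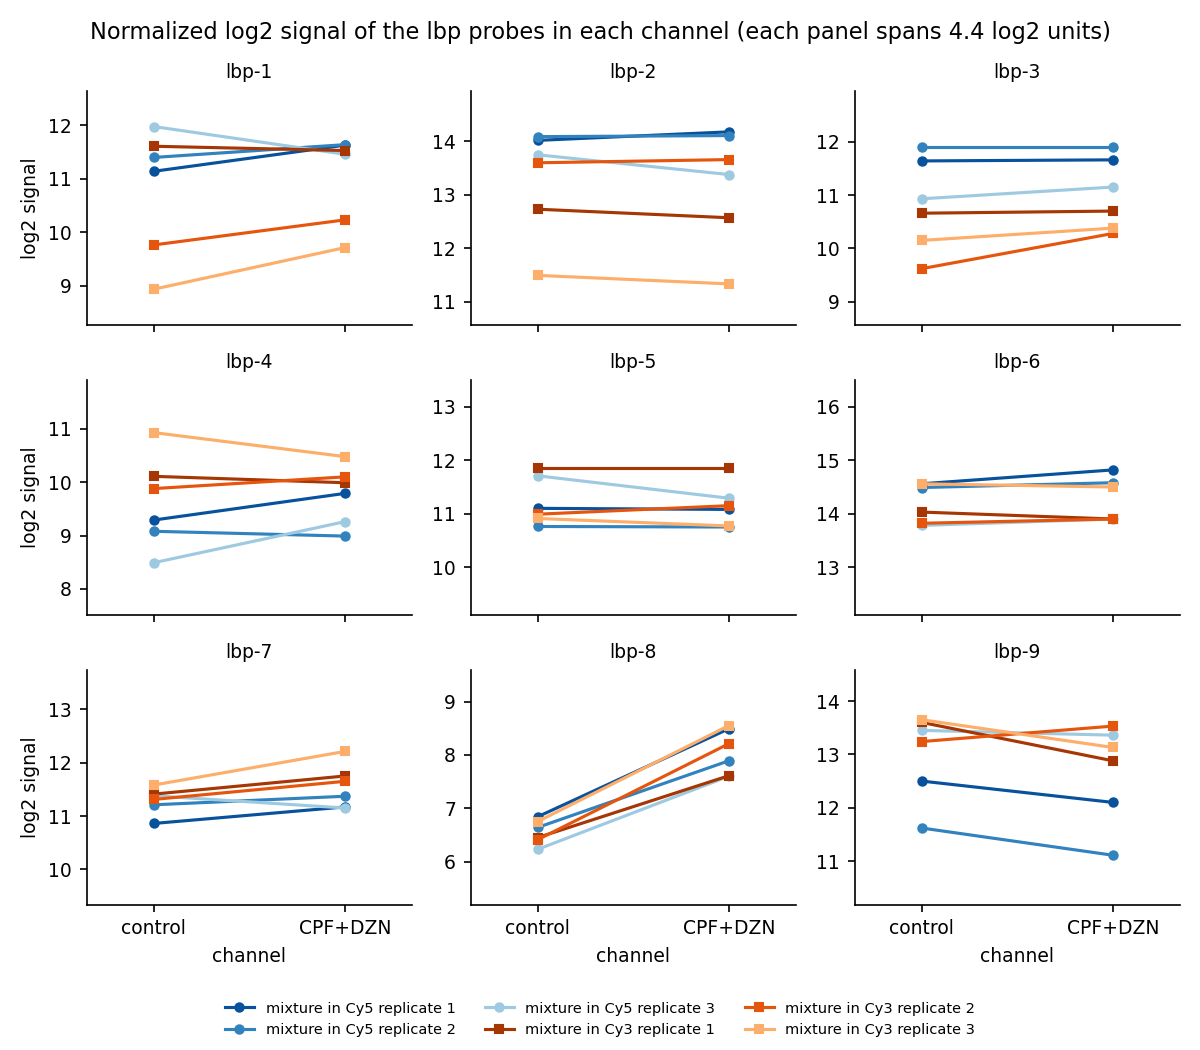
Normalized log2 signal (vertical axis) of each lbp probe in the control and CPF+DZN channels (horizontal axis), with a line for each of the 6 arrays and panels that span the same range, since levels of different probes cannot be compared. The lbp-8 lines all climb and their ends do not overlap. The levels of the other genes, lbp-1, lbp-2 and lbp-3 among them, differ more between arrays than between channels, both channels being read from the same spot.

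The arrays differed in the level of the secreted-type genes more than the groups did. The normalized log2 signal of lbp-2 ranged from 11.33 to 14.18 in the mixture and from 11.49 to 14.09 in the control, and both lowest values came from mixture in Cy3 replicate 3. The signal of lbp-1 ranged from 9.71 to 11.64 in the mixture and from 8.93 to 11.98 in the control, again lowest in both channels on that array. For lbp-3 it was 10.28 to 11.90 in the mixture and 9.62 to 11.90 in the control, lowest in both on mixture in Cy3 replicate 2. The 2 channels of an array thus moved together in these genes. Both are read from the same spot, so an effect of the spot or of the hybridisation reaches both. Moving together is therefore no trait of these genes. Such a spread of levels between arrays was not particular to the secreted type. The signal of lbp-9 ranged from 11.11 to 13.53 in the mixture and from 11.62 to 13.65 in the control. Both of its lowest values came from mixture in Cy5 replicate 2.

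The intracellular genes lbp-5 and lbp-6, with 1 protein-coding gene between them, had the narrowest 95% intervals of the 9 genes. The log2 ratio of lbp-5, the gene linked to NHR-49, was -0.03, -0.02 and -0.43 with the mixture in Cy5 and -0.01, 0.16 and -0.14 with it in Cy3. Its mean was -0.08 ± 0.20 (95% interval -0.28 to 0.13, adjusted p = 0.655, limma). For lbp-6 the ratios were 0.26, 0.09 and 0.12, and -0.14, 0.08 and -0.06, a mean of 0.06 ± 0.14 (95% interval -0.11 to 0.23, adjusted p = 0.677). The lbp-6 probe had no saturated pixels although its foreground reached 36788 units. Within arrays lbp-5 was below lbp-6 on 4 of 6, with a mean difference of -0.13 ± 0.25 (exact sign permutation test, adjusted p = 0.391).

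Of the members that stand alone in the genome, lbp-4 differed in sign between arrays and lbp-9 leaned lower. The log2 ratio of lbp-4 was 0.49, -0.09 and 0.77 with the mixture in Cy5 and -0.12, 0.22 and -0.44 with it in Cy3, so it was higher on 3 arrays and lower on 3 (mean 0.14 ± 0.44, adjusted p = 0.577, limma). The lbp-9 ratios were -0.40, -0.50 and -0.09, and -0.72, 0.29 and -0.52, lower on 5 of 6 arrays. Its mean of -0.32 ± 0.36 (SD, n = 6), a level of 0.799-fold, had an unadjusted p of 0.0469 and did not pass after adjustment (adjusted p = 0.166, limma). An unadjusted p under 0.05 was met by 28.9% of all features. The lbp-9 signal was 11.11 to 13.53 in the mixture (median 13.01) and 11.62 to 13.65 in the control (median 13.35), so the groups overlapped.

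The call for lbp-9 turned on how a spot is summarised. With the mean of the foreground pixels in place of their median, lbp-9 was lower on 6 of 6 arrays, from -0.61 to -0.15, and passed (mean -0.38 ± 0.15, adjusted p = 0.0171, limma). It passed as well in the deposited table (-0.32 over the 5 arrays with a value, adjusted p = 0.0101) and with the ratios centred on the median in place of loess (-0.57, adjusted p = 0.0285). The readings parted on mixture in Cy3 replicate 2, where the ratio was 0.29 from medians and -0.36 from means. There the mean over the median was 1.74 in the control channel and 1.16 in the mixture channel. Across all arrays this quotient reached 1.88 for lbp-9 and 2.11 for lbp-4, and was at most 1.30 for each of the other 7 genes. The deposited table followed the ratios from means (r of 0.997 to 0.999 per array over 2672 bright features) more closely than those from medians (r of 0.911 to 0.970).

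**Figure D4:**
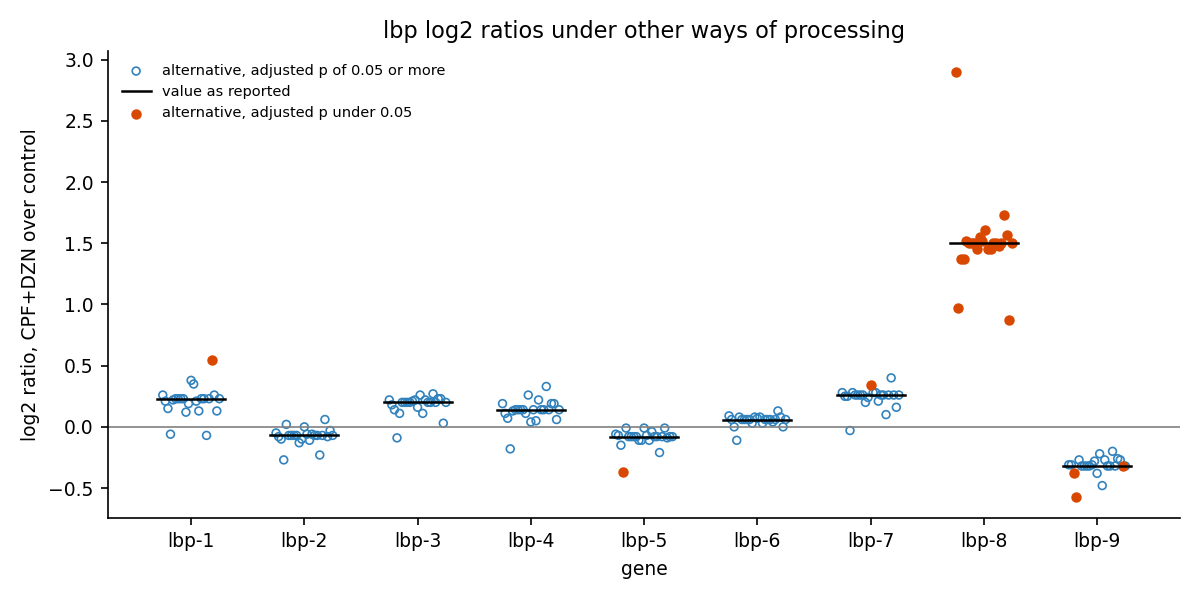
log2 ratio of CPF+DZN over control (vertical axis) of each lbp gene (horizontal axis) as reported (line) and in each alternative analysis (circles, filled where the adjusted p was under 0.05). All lbp-8 circles are filled, from 0.87 to 2.90, and the filled circles of other genes are 1 each for lbp-1, lbp-5 and lbp-7 and 3 for lbp-9.

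The centring of the ratios moved the uncalled members together. With median centring in place of loess, the ratios of lbp-1, lbp-3, lbp-4, lbp-6 and lbp-7 changed sign, to between -0.18 and -0.03, and lbp-5 passed as lower (-0.37, adjusted p = 0.0189, limma). Over all features the same setting called 679 higher and 3439 lower, against 1281 and 1355 with loess. The directions of lbp-1, lbp-3, lbp-4, lbp-6 and lbp-7 are therefore bound to loess. The means of lbp-2, lbp-5 and lbp-9 were below 0 under both, and lbp-8 was higher under both (1.37 with median centring).

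Around the lbp genes lie the regulators that LBP-8 and LBP-5 are known to act with. Of the 10 regulators and partners listed, 9 were measured, and none was called in either direction, where 13.9% of all features were (median log2 ratio 0.15, over all features 0.00). Other settings called up to 2 of them: 2 higher without mixture in Cy5 replicate 3 and 2 lower with median centring. Of 18999 features these settings called 2173 higher and 3439 lower, against 1281 and 1355 as reported. The gene of NHR-49 was not analysed here. The receptor gene nhr-80 had a log2 ratio of 0.22 (adjusted p = 0.254, limma). The 3 genes of this list with the smallest p were hlh-30, the transcription factor of lysosomal genes, at 0.42 ± 0.38 (SD, n = 6, adjusted p = 0.0817), atgl-1, a lipase of fat droplets, at 0.27 ± 0.20 (adjusted p = 0.0989), and lipl-4, the lysosomal lipase, at -0.50 ± 0.62 (adjusted p = 0.150). The hlh-30 ratio passed as higher without mixture in Cy5 replicate 3 (0.53, adjusted p = 0.0149), with foreground means (0.40, 0.0315), with the slide series as a block (0.42, 0.0267), within the shared scan day (0.59, 0.0244) and in the deposited table (0.36, 0.0412), while it was 0.10 with median centring and 0.19 within the later slide series. The lipl-4 ratio thus had the sign opposite to that of lbp-8 without passing the test, and its spread between arrays was larger than its mean. Within the later slide series lipl-4 passed as lower (-0.94, adjusted p = 0.0318, limma). So it did within the shared scan day (-0.49, adjusted p = 0.0450). These subsets share replicates 2 and 3 of mixture in Cy3, so they are not separate repeats. It passed as well with median centring (-0.59, adjusted p = 0.0391) and with the slide series as a block (adjusted p = 0.0233). In the deposited table it did not (-0.14, adjusted p = 0.178). Its signal was well above background on 4 arrays in the mixture and 5 in the control.

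Among the other lipid carriers, 14 of 16 listed genes were measured, of which 3 rose and 1 fell (21.4% and 7.14%, against 6.74% and 7.13% of all features, median log2 ratio 0.03). The 3 higher calls became 1 with median centring and 0 with plain background subtraction. They also became 0 by the methods' t-test at its threshold (p under 0.01). The fatty acid and retinol binding protein genes far-7 (1.02 ± 0.73, adjusted p = 0.0223, limma) and far-3 (0.60 ± 0.19, adjusted p = 0.00636) rose, as did maa-1, which encodes an acyl-CoA binding protein of membranes (0.52 ± 0.39, adjusted p = 0.0487). The acyl-CoA binding protein gene acbp-4 fell (-0.72 ± 0.40, adjusted p = 0.0216), with a mixture signal well above background on 1 array, and is named after its value was seen. Only far-3 of these kept its call without each array in turn. It lost it with median centring (0.30, adjusted p = 0.0848) and with plain background subtraction (0.65, adjusted p = 0.0683). The methods' t-test did not call far-3 either (adjusted p = 0.463 after Benjamini-Hochberg). That test, here and in the count of 0 above, is unpaired, so the spread of levels between arrays enters it. It therefore cannot decide whether the ratios within arrays were steady. The call of far-7 was lost without replicate 1 or 2 of mixture in Cy5 or replicate 2 or 3 of mixture in Cy3. Its values were then 0.86 to 1.01 (adjusted p 0.0711 to 0.0914, limma). The call of acbp-4 was lost without the same arrays (-0.71 to -0.61, adjusted p 0.0643 to 0.0932). The call of maa-1 was lost without any 1 array other than mixture in Cy5 replicate 3 (0.40 to 0.59, adjusted p 0.0913 to 0.163). In the later slide series far-7 was at 0.52 and maa-1 at 0.22, and neither passed (adjusted p = 0.130 and 0.427, limma).

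The enzymes that make unsaturated fatty acids or burn fatty acids in mitochondria, several of them known targets of NHR-49, were called at shares near the background. All 23 listed genes were measured, of which 2 rose and 3 fell (8.70% and 13%, against 6.74% and 7.13% of all features, median log2 ratio -0.03). The palmitoyl-CoA desaturase gene fat-5 rose (0.58 ± 0.18, adjusted p = 0.0101, limma), and so did the desaturase gene fat-3 (0.60 ± 0.42, adjusted p = 0.0312). The stearoyl-CoA desaturase gene fat-7 (-0.66 ± 0.59, adjusted p = 0.0274), the acyl-CoA dehydrogenase gene acdh-8 (-0.90 ± 0.58, adjusted p = 0.0177) and the thiolase gene kat-1 (-0.32 ± 0.11, adjusted p = 0.0243) fell. The genes fat-3 and fat-7 are named after their values were seen. The related desaturase gene fat-6 had a log2 ratio of 0.04, and acs-2, an acyl-CoA synthetase gene and a known NHR-49 target, had 0.38 ± 0.98 (adjusted p = 0.338).

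Of these calls fat-5 held without each array in turn, but it was lost with plain background subtraction (0.62, adjusted p = 0.0767, limma), with median centring (0.33, adjusted p = 0.0587) and in the slides of the later series alone (0.60, adjusted p = 0.0547). The methods' t-test did not call fat-5 either, at its threshold or after Benjamini-Hochberg (adjusted p = 0.980). That test is unpaired, so it sets aside which channels share an array, and the spread of levels between arrays enters it. On mixture in Cy5 replicate 1 the fat-5 levels were 15.04 in the mixture and 14.41 in the control. Elsewhere they were 10.57 to 11.16 and 9.99 to 10.74. Its result therefore cannot decide whether the fat-5 ratio within arrays was steady. The calls other than that of fat-5 were each lost without 1 or another array. The call of acdh-8 was lost without mixture in Cy5 replicate 2 or any of mixture in Cy3 replicates 1, 2 and 3 (-0.93 to -0.84, adjusted p 0.0603 to 0.0766, limma), and kat-1 and fat-7 without any 1 array other than mixture in Cy5 replicate 3 (kat-1 -0.34 to -0.31, adjusted p 0.0730 to 0.0829; fat-7 -0.69 to -0.56, adjusted p 0.0713 to 0.111). The call of fat-3 was lost without replicate 1 or 2 of mixture in Cy5 or replicate 2 or 3 of mixture in Cy3 (0.48 to 0.57, adjusted p 0.0929 to 0.118). In the later slide series acdh-8 was at -0.48 (adjusted p = 0.0539) and kat-1 at -0.30 (adjusted p = 0.180). The lbp-8 ratio was 1.45 to 1.61 without each array, and it passed each time.

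**Figure D5:**
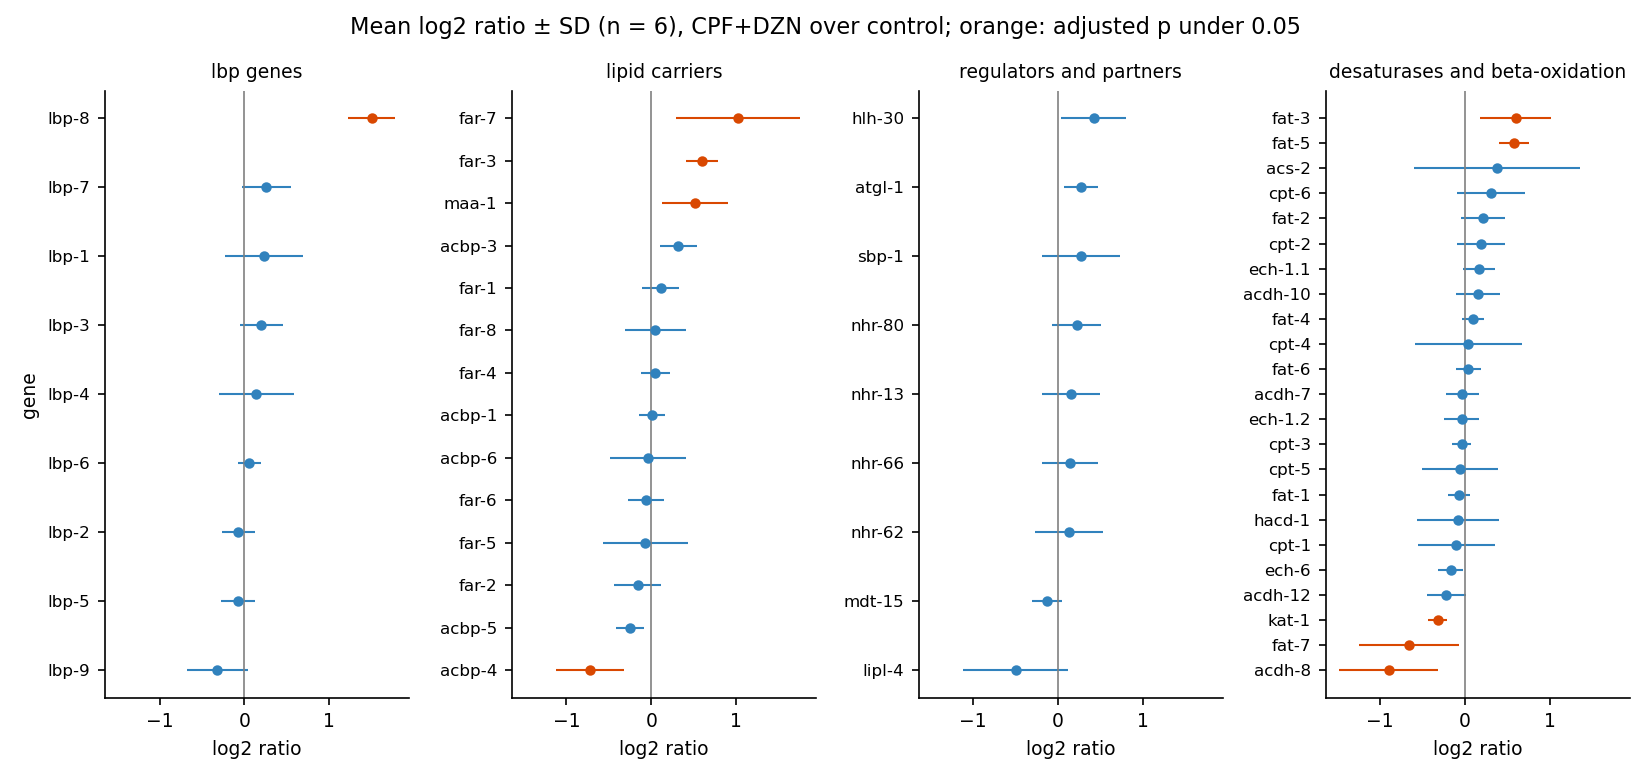
Mean log2 ratio ± SD over 6 arrays (horizontal axis) of the lbp genes and of the 3 lipid lists, with a row for each gene (vertical axis) and orange for an adjusted p under 0.05. The lbp-8 point at 1.50 is the only orange point of its panel, and no regulator or partner is orange.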

How the data were processed

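Each deposited scanner file gives the intensity of every spot in both channels (foreground median and mean, local background) and its percent of saturated pixels, unnormalized as the authors' ScanArray software wrote them. A second file, the value table deposited by the authors, gives log2 ratios of mixture over control, normalized by loess and Aquantile per the methods (limma 3.2.3 per the submitters' notes). Its values ran smaller than the ratios computed here from foreground medians (slopes 0.757 to 0.867). They came closer to the ratios from foreground means (slopes 0.94 to 0.96). Its medians lay between -0.00313 and 0.000102, and no source used here states its background correction.

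From the foreground medians, background was corrected by normexp with an offset of 50, and loess within and Aquantile between arrays were applied in R 4.3.3 with limma 3.58.1. Of 22490 worm probes 21380 (95.1%) were named, through the platform table and RefSeq WBcel235, and the probe with the highest mean signal stood for a gene. The fit held the mixture and a dye effect per gene, and was tested on simulated data. Of each lipid list the 3 genes with the smallest p were named among those above background on at least 3 arrays, besides all lbp genes. Of the genes listed, acbp-7, dbi-1, nhr-49 and unc-17 were not analysed here. The members and lists were chosen with earlier results of these data known. Alternatives changed background, spot summary, normalization, probe filters, dye, batch and block terms, left out each array, and used the deposited table.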

Additional observations from a re-analysis of the deposited data

Results flagged for a closer look

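Of 63 groups of 6 values checked for a value far from the rest, 3 were picked out, and chance picks out about 1 in 20 such groups. The log2 ratio of lbp-3 was 0.66 on mixture in Cy3 replicate 2, while the other 5 arrays lay between 0.00 and 0.23. On mixture in Cy5 replicate 1 the normalized log2 level of fat-5 was 15.04 in the mixture and 14.41 in the control, while the other arrays lay between 10.57 and 11.16 and between 9.99 and 10.74. Both channels of that array were high together, and the ratio of fat-5 was not picked out.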

How the results depend on the processing

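The lbp-8 ratio kept its direction and its call under each of the 23 alternatives that could include it, from 0.87 to 2.90 (adjusted p 9.79e-05 to 0.0112). It could not be included with only the spots of flag value 3, where 0 lbp genes were called higher. For the other 8 members, 192 values under alternatives held 177 with the same direction and side of the threshold, 6 that passed only under the alternative and 9 of opposite sign. Lower calls among the lbp genes numbered 1 with foreground means, 2 with median centring and 1 in the deposited table. Higher calls numbered 2 within the shared scan day and 1 to 2 with each array left out, the 2 without mixture in Cy5 replicate 3. The features called, 2636 as reported, numbered 201 with plain background subtraction, 4118 with median centring and 4308 with the slide series as a block. They numbered 891 within the later slide series. With each array left out they numbered 535 (without mixture in Cy3 replicate 3) to 4609 (without mixture in Cy5 replicate 3). The unpaired t-test, run without the methods' outlier removal, called 583 at the methods' threshold and 56 after Benjamini-Hochberg. The authors' own analysis counted more genes at that threshold.

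The replicate number as a block left 950 features called. Arrays with the same replicate number did not deviate together (r of -0.107, -0.006 and -0.233), so the numbers name arrays and do not pair them. The block changed no call of an lbp gene (lbp-8 adjusted p = 0.0112).

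Signs turned for lbp-1 (-0.06 with median centring, -0.07 within the later series), lbp-2 (0.02 with print-tip loess, 0.06 within the scan day, -0.13 to 0.00 with each array left out), and with median centring for lbp-3 (-0.09), lbp-4 (-0.18), lbp-6 (-0.11), lbp-7 (-0.03), atgl-1 (-0.06), mdt-31 (-0.18) and C49A9.6 (-0.23). They turned as well for F43H9.3 within the scan day (0.03), for C49A9.6 with an array left out (-0.03 to 0.15) and for the difference of lbp-1 and lbp-3 (-0.07 to 0.19). The cause was not tested. The faint control signal limits the lbp-8 fold, and 6 arrays limit the precision of all values.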

Other observations

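The genes beside the lbp genes were looked at after their values were seen, 3 protein-coding genes on each side in the WBcel235 order. Beside lbp-8, 2 of 6 neighbours were called higher: the cytochrome P450 gene cyp-35C1, at a log2 ratio of 3.58 (adjusted p = 0.000328, limma), and the saposin-like gene spp-12, at 0.47 (adjusted p = 0.0446). The other 4 ranged from 0.03 to 0.45. The call of cyp-35C1 held without each array in turn (3.27 to 3.73), and that of spp-12 held only without mixture in Cy5 replicate 2 (0.58; 0.39 to 0.53 without the others). Called neighbours were not particular to lbp-8: mig-6 beside lbp-4 (0.53, adjusted p = 0.0170), Y40B10A.9 beside lbp-9 (0.44, adjusted p = 0.0257) and spp-12, which also lies near lbp-7, were called higher. No neighbour of lbp-1, lbp-2, lbp-3, lbp-5 or lbp-6 was called, and over all features 6.74% were called higher.

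Of 9849 genes well above background in both channels on at least 3 arrays, the 3 whose ratios correlated most with those of lbp-8 over the 6 arrays were F43H9.3 (r = 0.988), mdt-31 (r = 0.981) and C49A9.6 (r = 0.977), and 41 genes had an r over 0.9. Their log2 ratios of -0.23 ± 0.32, 0.12 ± 0.26 and 0.05 ± 0.30 did not pass the test, so they share the order of the arrays with lbp-8 and not its level of change. The 6 points share their arrays, and the 3 genes are the highest of 9849. Unrelated genes can reach such r over 6 arrays, so these r and the count of 41 are given as a description.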
